A study of Mus musculus with 6 samples.

Results

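The mRNA of 8 homing receptors was measured in C1498 leukemia cells taken from the bone marrow of mice with and without cytarabine treatment. The receptors were chosen by their gene symbols, Cxcr4, Cxcr3, Cxcr6, Ccr2, Ccr7, S1pr1, Selplg and Cd44, and all 8 were found among the 23284 genes of the files. C1498 is a murine acute myeloid leukemia (AML) line, and the cells carried GFP and came from 1 selected clone. They were injected into C57BL/6 J mice, with female mice of 8 to 10 weeks used unless stated otherwise, and on day 21 GFP+ CD49b+ cells were sorted from the marrow of femur, tibia and pelvis. The 3 cytarabine libraries came from 3 mice given cytarabine, and the 3 control libraries from 3 mice that the labels call both PBS-treated and untreated, with 1 library per mouse.

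Homing receptors direct blood and leukemia cells into, within and out of marrow and lymphoid organs. PSGL-1, encoded by Selplg, and CD44 catch flowing cells on the vessel wall, the first by binding selectins and the second by binding selectins or hyaluronan. Chemokine receptors then read local ligands, with CXCR4 following CXCL12 of the marrow stroma and CCR7 following CCL19 and CCL21 of lymph nodes. S1P1, the product of S1pr1, guides cells out of tissues toward sphingosine 1-phosphate in the blood.

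Of the 6 receptors with enough RNA to be tested, Cxcr4 was the single one whose cytarabine libraries all lay above all control libraries. The same held for 10.9% of all genes tested. The level of Cxcr4 was 28.0 ± 5.67 FPKM with cytarabine and 16.7 ± 1.48 FPKM in controls (SD, n = 3 mice each). The difference did not pass the threshold after adjustment over all genes. Selplg was higher on average and S1pr1 lower, with overlapping groups. Cd44 and Cxcr6 had group means that differed by less than their spread, Ccr2 rested on 1 control library, and Ccr7 and Cxcr3 were close to the limit of detection.

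The sequence before the Cxcr4 gene is shown because Cxcr4 was the tested receptor whose groups did not overlap, and that of Cxcr6 because it is a chemokine receptor gene of similar level whose groups overlapped. Both run 5′ to 3′ on the strand of the gene, from 250 bases before to 50 bases after the RefSeq start, in build GRCm38.p6. Capitals mark matches on either strand to the GC box (GGGCGG) and the TATA box (TATAAA).
Cxcr4, chr1:128592250-128592549, minus strand: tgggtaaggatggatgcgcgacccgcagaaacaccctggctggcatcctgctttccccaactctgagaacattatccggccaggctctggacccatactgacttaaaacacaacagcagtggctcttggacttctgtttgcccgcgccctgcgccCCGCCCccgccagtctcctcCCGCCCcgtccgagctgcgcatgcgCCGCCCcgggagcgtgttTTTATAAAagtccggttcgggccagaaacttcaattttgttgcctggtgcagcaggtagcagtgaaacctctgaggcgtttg
Cxcr6, chr9:123806227-123806526, plus strand: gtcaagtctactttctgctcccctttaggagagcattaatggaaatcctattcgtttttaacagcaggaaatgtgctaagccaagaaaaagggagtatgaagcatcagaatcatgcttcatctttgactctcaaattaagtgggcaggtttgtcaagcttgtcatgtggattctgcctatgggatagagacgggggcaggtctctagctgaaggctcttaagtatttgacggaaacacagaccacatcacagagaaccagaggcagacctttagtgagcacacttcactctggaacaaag

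The window of Cxcr4 held 3 GC boxes, the first from -95 to -90 relative to the start. The TATA box was found on both strands in overlapping letters that began at -32. Among 32851 promoter windows of the same length, 35.7% held a GC box and 13.6% the TATA box. The CArG box, the element that SRF binds, and ACGTG, a form of the HIF core, were also searched on both strands. Neither was found in the Cxcr4 window. They were present in 1.63% and 19.6% of all windows. Another form of the HIF core, GCGTG, was not searched, and the letters of the Cxcr4 window contain it. None of the 4 motifs searched was found in the Cxcr6 window. The G and C content was 59.3% for Cxcr4, 44.3% for Cxcr6 and 52.7% at the median of all windows. A match is a description of the letters, since binding was not measured. RefSeq windows of Cxcr3, Ccr2 and Cd44 were searched as well, and the Cd44 window held 1 GC box and 1 ACGTG. Those of S1pr1, Selplg and Ccr7 were not analysed here.

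The values are FPKM, the number of sequenced fragments scaled by the exon length of the gene and by the number of mapped fragments of the library, as the authors computed them with Cufflinks. Dividing by length allows levels to be compared between genes. Read totals were inferred from the steps between low FPKM values and ranged from 11540000 to 18940000 per library, which puts 3 reads on 2000 transcript bases at 0.0792 to 0.130 FPKM. The libraries did not divide by treatment. The summed FPKM of 8 colon epithelium genes was 2528, 2896 and 1367 in cytarabine 2, cytarabine 3 and control 1, and 200.02, 18.8 and 20.2 in cytarabine 1, control 2 and control 3, and the sum of 6 heart muscle genes was highest in control 1, at 2422 FPKM. Neutrophil genes were lower in cytarabine 2 and 3, with a sum of 203 and 190 FPKM against at least 1435 FPKM elsewhere. The labelled cell type is AML, yet the T cell genes Cd3g and Cd3e were at 449 to 652 and 130 to 199 FPKM over the 6 libraries. Of the 10 T cell genes listed, 5 were under 1 FPKM in every library, among them Cd247 and Cd4. The myeloid blast gene Mpo was at 71.1 FPKM in cytarabine 1 and at most 12.3 FPKM in the other 5. Cd34, of the same blast list, was lowest in cytarabine 1, at 0.410 FPKM. Itga2, the gene of the CD49b antigen used in the sort, was at 7.79 to 8.11 FPKM under treatment against 10.6 to 13.3 FPKM in controls. Because these are bulk samples, fewer cells of a type and less RNA per cell cannot be told apart.

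By mean FPKM over the 6 libraries the receptors ranked Cd44, Selplg, Cxcr4, Cxcr6, S1pr1, Ccr2, Ccr7 and Cxcr3, at 50.6, 32.0, 22.4, 15.2, 8.39, 2.22, 0.416 and 0.205 FPKM. Cd44 stood above Selplg, Cxcr6 above S1pr1, S1pr1 above Ccr2, and Ccr2 above Ccr7 with no overlap of their ranges. The ranges of Selplg and Cxcr4 overlapped, although Selplg was the higher of the pair in 6 of 6 libraries. The ranges of Cxcr4 and Cxcr6 overlapped over the 6 libraries, and the order held in 5 of 6 and turned in control 1. With cytarabine alone, Cxcr4 at 22.6 to 33.9 FPKM lay above Cxcr6 at 12.6 to 16.2 FPKM. Ccr7 and Cxcr3 likewise overlapped, with the order kept in 5 of 6. Among the 11703 genes tested, Cd44 was higher than 82.6% of genes in level, Selplg than 73.1%, Cxcr4 than 63.3%, Cxcr6 than 52.2%, S1pr1 than 35.9% and Ccr2 than 11.1%.

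**Figure D1:**
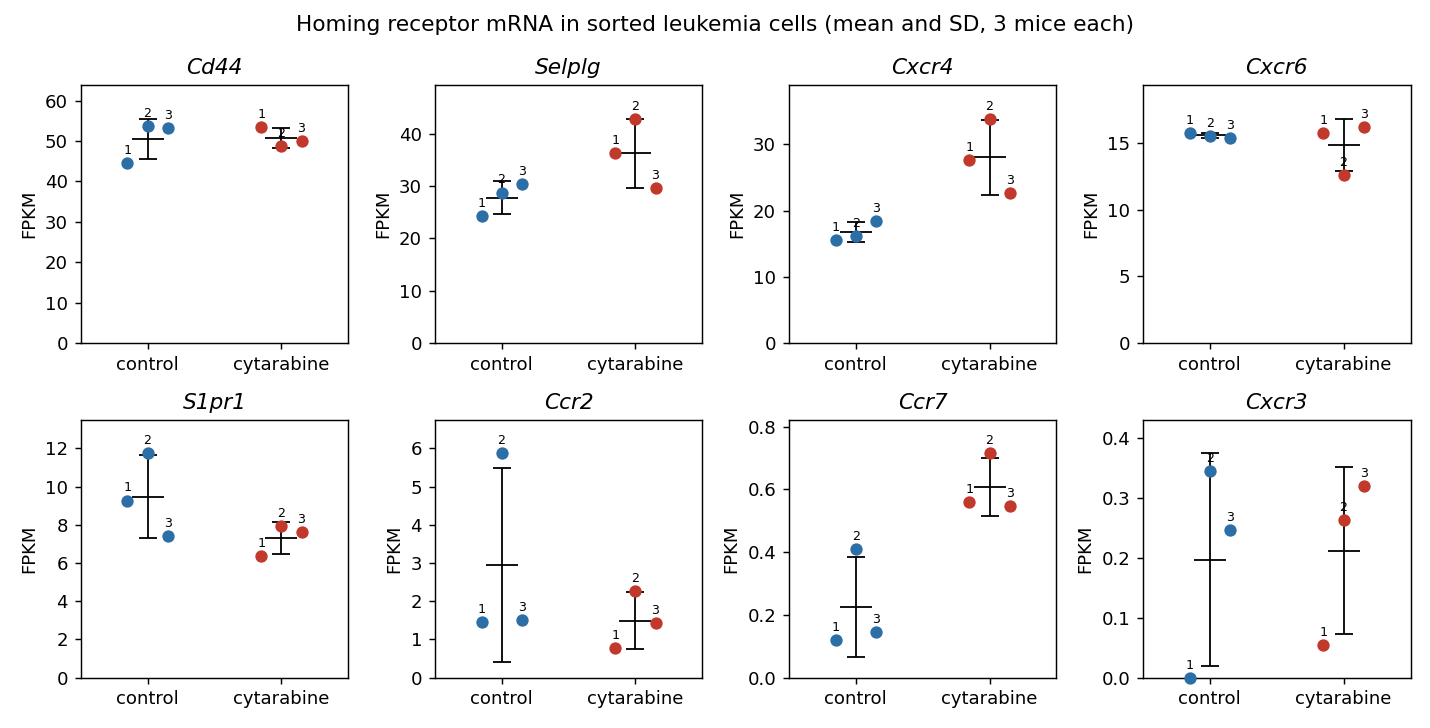
FPKM of each homing receptor (y axis, from 0) in the 3 control and 3 cytarabine libraries (x axis). Points are single mice numbered by library, and the black lines give the mean and SD. The groups are apart for Cxcr4 and Ccr7 and overlap for the other 6 receptors. Groups apart in this direction occur in 10.9% of genes tested and in 7.91% of genes from 0.1 to 1 FPKM. The control mean of Ccr2 is set by control 2 at 5.87 FPKM.

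The difference between cytarabine and control was tested by limma on log2(FPKM + 1) for the 11703 genes that averaged 1 FPKM or more, with two-sided p-values adjusted by Benjamini and Hochberg's method. This scale understates differences of weakly expressed genes. The threshold was an adjusted p under 0.05, which 0 genes (0%) met, and the smallest adjusted p from limma was 0.0551. At an unadjusted p under 0.05 limma found 2038 genes, or 17.4% of those tested, against 1 of the 6 homing receptors tested, which was Cxcr4. A share of 1 in 6 is near that background. Groups without overlap in the upward direction were found for 10.9% of genes tested, and among the 6 receptors again for Cxcr4. The median log2 difference was -0.030 over the 6 receptors and -0.0015 over all genes tested.

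**Figure D2:**
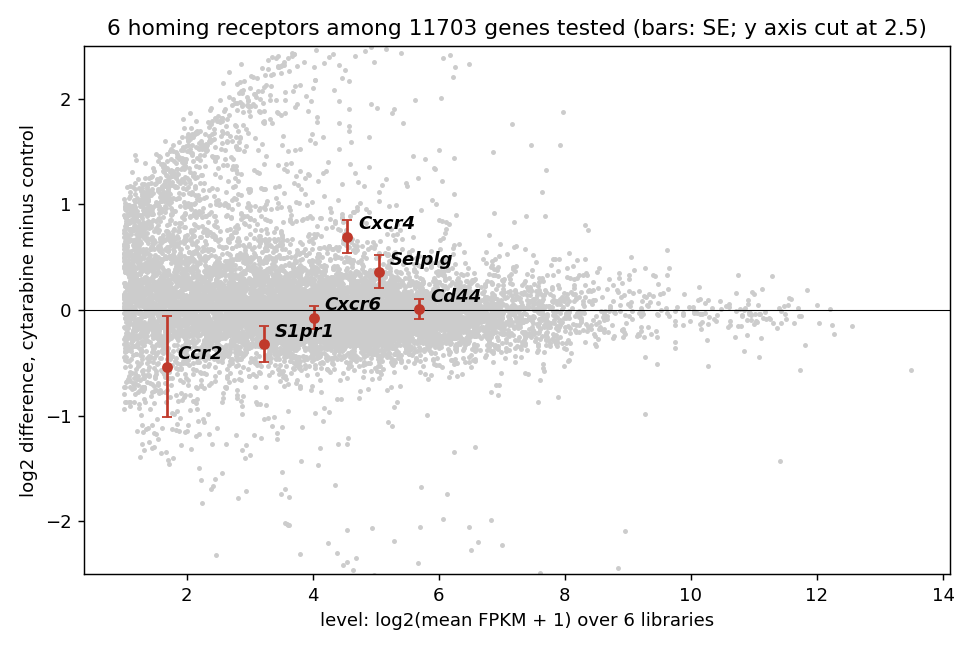
Log2 difference between cytarabine and control (y axis, cut at 2.5) against level (x axis, log2 of mean FPKM + 1) for the 11703 genes tested (grey), with the 6 tested receptors in red and their standard errors. Cxcr4 at 0.70 lies highest of the 6 and Ccr2 at -0.54 lowest, with the widest error, and the receptors lie inside the cloud of all genes.

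Cxcr4, on chromosome 1 from 128588199 to 128592293 of GRCm38, encodes the receptor for CXCL12, which holds leukemia and stem cells in the marrow. It was at 27.6, 33.9 and 22.6 FPKM in the treated mice, in the order of the library numbers, against 15.6, 16.2 and 18.4 FPKM in the control mice. The lowest cytarabine library was thus above the highest control library. The log2 difference was 0.70 (standard error 0.16, 95% interval 0.31 to 1.08, unadjusted p = 0.00443 and adjusted p = 0.159 from limma), a fold of 1.62. The difference was between 0.55, without cytarabine 2, and 0.84, without cytarabine 3, across fits that dropped 1 library. Within the libraries with little colon RNA it was 0.65, and within those with much of it 0.79, each of these resting on 1 library against 2. Neither side was matched for colon RNA. On the side with little, the colon sum was 200.02 FPKM in cytarabine 1 against 18.8 and 20.2 FPKM in control 2 and 3.

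B cells and neutrophils also use CXCR4. The summed FPKM of 6 B cell genes was 6.67 to 14.8 with cytarabine and 6.16 to 7.76 in controls, and was highest in cytarabine 2, the library with the most Cxcr4. Of the 3 B cell genes tested, 1 was higher at an unadjusted p under 0.05 from limma, where 7.6% of all genes were. It was Cd79b, with 3.46, 3.83 and 2.26 FPKM against 1.55, 2.03 and 1.31 FPKM (unadjusted p = 0.0252 from limma). The B cell genes did not share a direction, since the defining gene Pax5 was at 0.105 to 0.228 FPKM with cytarabine and at 0.350 to 0.692 FPKM in controls, and Ebf1 was at 0.187 to 0.329 FPKM and at 0.255 to 1.17 FPKM. The 9 neutrophil genes summed to 190 to 1435 FPKM with cytarabine and 1440 to 2046 FPKM in controls. At an unadjusted p under 0.05 from limma 7 of these 9 were lower, against 9.81% of all genes, and the exceptions were Camp, highest of all in cytarabine 1 at 122.7 FPKM, and Cxcr2, highest of all in cytarabine 2 at 3.88 FPKM. The part of these cells in the Cxcr4 difference was not tested.

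Cxcr4 held a larger share of all chemokine receptor RNA in each cytarabine library than in any control. Over all 24 chemokine and atypical chemokine receptors, Cxcr4 held 10.8%, 14.4% and 10.1% of the summed FPKM in cytarabine 1, 2 and 3 and 6.51%, 4.99% and 5.86% in control 1, 2 and 3. The leading receptor of these cells was Ccr8, a receptor of skin-homing and regulatory T cells, with 52.8% to 59.2% of the sum under cytarabine and 61.3% to 63.6% in controls. The fractalkine receptor Cx3cr1 came next, with 19.2% to 21.3% in controls and less in every cytarabine library. The 3 shares are parts of one sum and so are not independent. That of Cxcr4 uses the same FPKM values as its difference above. The sum itself was 256, 236 and 223 FPKM with cytarabine and 239, 325 and 314 FPKM in controls.

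**Figure D3:**
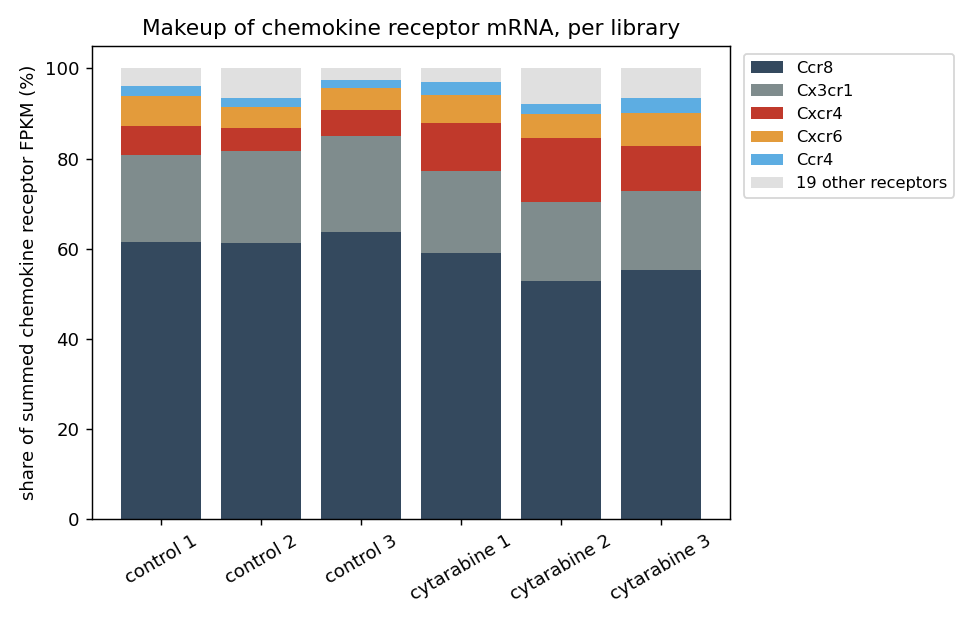
Share of the summed FPKM of 24 chemokine receptors (y axis, percent) held by the 5 leading receptors in each library (x axis). Ccr8 takes more than 52% in every library, and the Cxcr4 band is at least 10.1% in the cytarabine libraries and at most 6.51% in the controls.

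Among the 19 chemokine receptors other than the homing receptors, 6 were tested and none passed the threshold. At an unadjusted p under 0.05 from limma, 0 were higher and 2 lower, where 7.6% of all genes were higher and 9.81% lower. The 2 were Cx3cr1, with a log2 difference of -0.49 (standard error 0.16, adjusted p = 0.233 from limma), and Ccr8, with -0.44 (standard error 0.15, adjusted p = 0.236 from limma). For both, the groups overlapped. Ccr8 was at 152, 125 and 124 FPKM under treatment against 147, 199.3 and 199.8 FPKM in controls, so control 1 lay among the cytarabine libraries. The median over the 6 was -0.36.

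Cxcr6, on chromosome 9 from 123806475 to 123811760, encodes the receptor for CXCL16 on activated T and NKT cells. It was at 15.7, 12.6 and 16.2 FPKM under treatment against 15.8, 15.6 and 15.4 FPKM in controls. All but cytarabine 2 were within 1 FPKM of each other. The log2 difference was -0.070 (standard error 0.11, 95% interval -0.33 to 0.19, adjusted p = 0.712 from limma), and its sign turned to 0.036 without cytarabine 2. Cxcr6 lies inside Fyco1 on the opposite strand, and Fyco1 was at 1.41 to 3.83 FPKM. The library kit keeps strand, but whether the counting used it is not given in the sources used here.

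Ccr2, on chromosome 9 from 124101950 to 124113557, encodes the CCL2 receptor by which monocytes leave the marrow. It was at 0.765, 2.26 and 1.43 FPKM under treatment against 1.47, 5.87 and 1.51 FPKM in controls. Control 2 was far above the other 5 libraries. The log2 difference was -0.54 (standard error 0.48, adjusted p = 0.538 from limma), and -0.047 without control 2. Within the libraries with much colon RNA it was 0.19, of the opposite sign. The sum of 9 monocyte and macrophage genes was also highest in control 2, at 293 FPKM against 101 to 143 FPKM in the others, and Lyz2 made up most of it, with 233 FPKM. Not all of the 9 peaked there. Ly6c2 was highest in cytarabine 1, at 35.0 FPKM against 15.2 FPKM in control 2, and Cd14 was highest in cytarabine 2, at 6.78 FPKM against 2.87 FPKM in control 2. None of these 9 was under 1 FPKM in every library, and 1 of them, the integrin gene Itgam, was lower with cytarabine at an unadjusted p of 0.0076 from limma, where 9.81% of all genes were lower under 0.05. Their part in the Ccr2 level was not tested.

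Ccr7 and Cxcr3 were under the filter of 1 FPKM on average, and for them single reads matter. Ccr7, the lymph node receptor on chromosome 11 from 99144196 to 99155077, was at 0.559, 0.715 and 0.548 FPKM under treatment against 0.119, 0.409 and 0.147 FPKM in controls. With the inferred totals these values come to 13, 24 and 13 reads against 3, 9 and 3 reads, or 50 against 15 over the groups. The groups did not overlap, which was also the case in the upward direction for 7.91% of the 3428 genes with a mean of 0.1 to 1 FPKM. An exact permutation test of log2(FPKM + 1) gave p = 0.1, the smallest value that 3 mice against 3 allow. In a fit with no filter on low values, which took in 18178 genes, the log2 difference of Ccr7 was 0.40 (standard error 0.11, adjusted p = 0.279 from limma). Dendritic cells use CCR7 too, and 5 of 6 of their genes were under 1 FPKM in every library, a range that includes Ccr7 itself. The summed FPKM of the 6 was 1.92 to 2.71 with cytarabine and 1.41 to 3.11 in controls, and their part in the Ccr7 level was not tested.

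Cxcr3, on the X chromosome from 101731535 to 101734269, encodes the receptor for the interferon-induced ligands CXCL9, CXCL10 and CXCL11. It was at 0.0543, 0.263 and 0.319 FPKM under treatment against 0.344 and 0.247 FPKM in control 2 and 3, and was listed at 0 in control 1. Scaled by the inferred totals, these are steps of 1, 7, 6, 0, 6 and 4 of the smallest value, taken as 1 read. A difference was not detectable at this depth (exact permutation p = 0.9).

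S1pr1, on chromosome 3 from 115710433 to 115715072, encodes the receptor for exit into the blood. It was at 6.39, 7.93 and 7.61 FPKM under treatment against 9.27, 11.7 and 7.42 FPKM in controls. The groups overlapped because control 3 lay between cytarabine 1 and 3. The log2 difference was -0.32 (standard error 0.17, 95% interval -0.74 to 0.10, adjusted p = 0.368 from limma). It was -0.47 without control 3 and -0.17 without control 2.

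Of 13 further genes of the sphingosine 1-phosphate pathway 8 were tested and none passed the threshold. Under an unadjusted p of 0.05 from limma 2 were lower and 0 higher, against 9.81% lower and 7.6% higher for all genes. For both lower ones the groups did not overlap, which held for 12.9% of all genes in that direction. The median over the 8 was 0.068. S1pr4, a receptor of the same family on lymphoid cells, was at 14.9, 10.1 and 8.36 FPKM under treatment against 14.9, 15.5 and 18.8 FPKM in controls, with a log2 difference of -0.55 (standard error 0.21, adjusted p = 0.269 from limma). Cytarabine 1 and control 1 were close to equal, at 14.89 and 14.94 FPKM. Sphk2, a kinase that makes the ligand, had a log2 difference of -0.31 (standard error 0.10, adjusted p = 0.224 from limma). CD69 takes S1P1 from the cell surface, and its gene was at 66.7, 86.5 and 63.5 FPKM against 61.5, 77.5 and 68.2 FPKM. The transcription factor KLF2 drives S1pr1, and its gene was at 12.3, 13.4 and 9.36 FPKM against 9.96, 13.7 and 10.6 FPKM. The groups overlapped for Cd69 and for Klf2, in contrast to S1pr4 and Sphk2.

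Selplg, on chromosome 5 from 113818536 to 113832644, encodes PSGL-1, the main P-selectin ligand of leukocytes. It was at 36.3, 42.9 and 29.6 FPKM under treatment against 24.2, 28.8 and 30.5 FPKM in controls. The groups overlapped through cytarabine 3 and control 3. The log2 difference was 0.36 (standard error 0.16, 95% interval -0.023 to 0.75, adjusted p = 0.302 from limma). Leaving out 1 library gave 0.23, without cytarabine 2, to 0.50, without cytarabine 3.

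PSGL-1 binds selectins once its O-glycans have been built, among other modifications. The 14 genes listed were those of glycan synthesis and of sulfation, with Spn and Glg1 besides. Of the 13 tested, none passed the threshold, while 3 were higher and 0 lower at an unadjusted p under 0.05 from limma, against 7.6% higher and 9.81% lower for all genes. All 3 had groups that did not overlap, against 10.9% of all genes in that direction, and the median over the 13 was 0.26. Spn, which encodes the sialomucin CD43, was at 7.44, 5.18 and 5.16 FPKM under treatment against 2.81, 3.43 and 3.87 FPKM in controls, with a log2 difference of 0.65 (standard error 0.18, adjusted p = 0.183 from limma). Gcnt1, the core 2 branching enzyme, was at 8.58, 7.07 and 8.34 FPKM against 3.70, 5.37 and 6.44 FPKM, a log2 difference of 0.57 (standard error 0.19, adjusted p = 0.230 from limma). C1galt1, which makes the core 1 structure before it, had 0.31 (standard error 0.092, adjusted p = 0.204 from limma). St3gal4, a sialyltransferase gene, was the 1 gene of the list with all cytarabine libraries below all controls, at 17.3, 12.0 and 13.9 FPKM against 20.8, 17.4 and 17.3 FPKM, where the nearest values are 17.29 and 17.33 FPKM. The fucosyltransferase Fut7, which completes the selectin-binding glycan, was at 0.288 to 0.685 FPKM. The related enzymes Fut4 and St3gal6 followed the colon genes instead, with St3gal6 at 22.2, 24.0 and 9.84 FPKM in cytarabine 2, cytarabine 3 and control 1 with 1.65 FPKM or less elsewhere.

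Cd44, on chromosome 2 from 102811141 to 102901665, encodes the hyaluronan receptor and was the highest of the 8. It was at 53.5, 48.8 and 49.9 FPKM under treatment against 44.7, 53.6 and 53.2 FPKM in controls. Control 1 was the lowest library, and the other 5 lay between 48.8 and 53.6 FPKM. The log2 difference was 0.011 (standard error 0.091, 95% interval -0.21 to 0.23, adjusted p = 0.952 from limma). FPKM per gene does not separate the splice forms of CD44, of which the annotation lists 9 transcripts with up to 19 exons. The splicing factors Esrp1 and Esrp2, which favour the longer forms in epithelia, followed the division of the colon genes. Esrp1 was at 9.07, 8.25 and 3.48 FPKM and Esrp2 at 2.99, 3.30 and 0.908 FPKM in the libraries with much colon RNA, and both were below 1 FPKM in the other 3.

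Among 17 genes of hyaluronan handling and CD44 partners 14 were tested, with a median of 0.10, and none passed the threshold. Under an unadjusted p of 0.05 from limma 1 was higher and 1 lower, in both cases with groups that did not overlap. Over all genes 7.6% were higher and 9.81% lower by that p, and 10.9% and 12.9% did not overlap, so these counts are near the background. Srgn, which encodes serglycin, a proteoglycan that binds CD44, was at 424, 366 and 329.9 FPKM under treatment against 232, 276 and 293 FPKM in controls, with a log2 difference of 0.48 (standard error 0.13, adjusted p = 0.183 from limma). Hmmr, which encodes a second hyaluronan receptor that also works in the mitotic spindle, was at 20.5, 20.9 and 21.6 FPKM against 25.3, 28.5 and 28.1 FPKM, a log2 difference of -0.36 (standard error 0.070, adjusted p = 0.144 from limma), lower in all 3 treated mice. The linkers that tie CD44 to actin, Ezr, Msn and Rdx, were at 156 to 202, 169 to 207 and 66.3 to 80.4 FPKM over the 6 libraries, and each had overlapping groups.

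**Figure D4:**
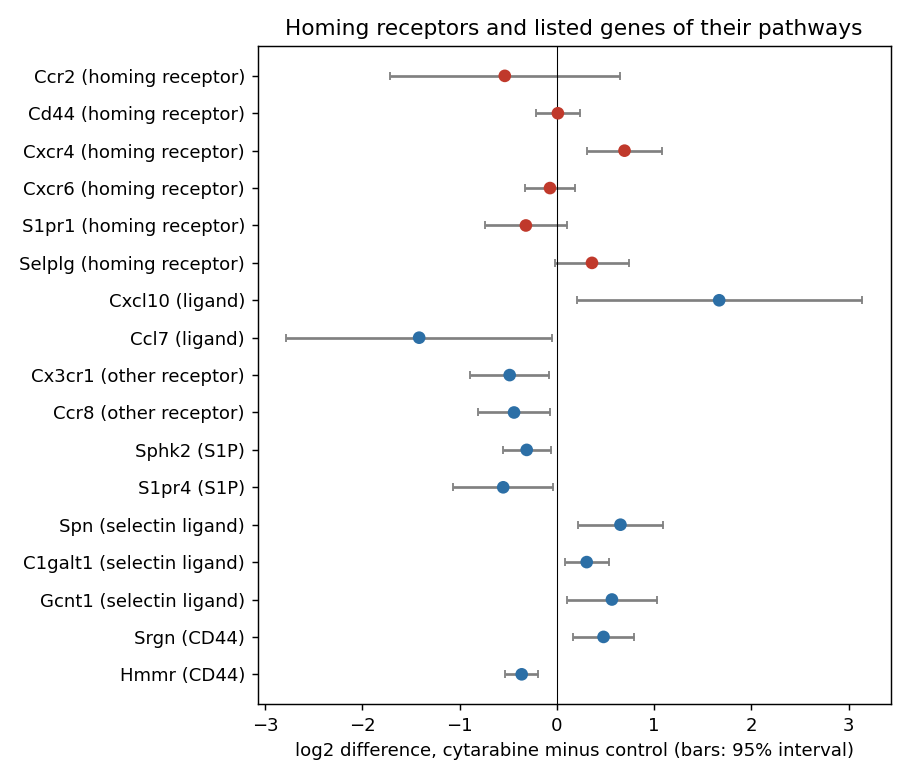
Log2 difference between cytarabine and control with its 95% interval (x axis) for the 6 tested receptors (red) and the listed ligand, receptor and enzyme genes with an unadjusted p under 0.05 (blue). Intervals are not adjusted for the number of genes, the blue genes were picked for their p, and no gene passed the threshold after adjustment.

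The ligands of the receptors were measured in the same sorted cells, and 11 of 21 were tested. None passed the threshold, with 1 higher and 1 lower at an unadjusted p under 0.05 from limma, near the 7.6% and 9.81% of all genes, and a median of -0.32. Cxcl10, a ligand of CXCR3, was at 9.89, 4.72 and 1.504 FPKM under treatment against 0.549, 1.62 and 0.194 FPKM in controls, with a log2 difference of 1.67 (standard error 0.60, adjusted p = 0.247 from limma). Cytarabine 3 lay below control 2, so the groups overlapped. Ccl7, a ligand of CCR2, was at 0.129, 0.356 and 1.51 FPKM against 1.54, 7.62 and 2.34 FPKM, a log2 difference of -1.42 (standard error 0.56, adjusted p = 0.277 from limma), with groups that did not overlap. Without control 2 it was -0.89. Its sister ligands Ccl2, Ccl8 and Ccl12 were highest in control 2 as well, at 12.6, 70.1 and 12.7 FPKM. The CXCR4 ligand Cxcl12 was at 0.678, 7.38 and 5.75 FPKM under treatment against 3.15, 5.37 and 1.03 FPKM in controls. Ccl21a, a ligand of CCR7, was at 14.0, 14.5 and 11.6 FPKM, in order, in cytarabine 2, cytarabine 3 and control 1, the libraries with much colon RNA, with 1.62 FPKM or less elsewhere. The osteopontin gene Spp1, which encodes a CD44 ligand, was at 112 to 280.0 FPKM, and Mif, which encodes a further ligand of CXCR4 and CD74, was at 542 to 820.4 FPKM, with overlapping groups for both. The CCR7 ligand genes Ccl21b and Ccl21c were listed at 0 in all 6 libraries. How reads were divided among the Ccl21 genes is not given in the sources used here.

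Downstream of these receptors, 35 genes of G proteins, receptor kinases, arrestins, RGS proteins and Rac exchange factors were listed. Of the 32 tested none had an unadjusted p under 0.05 from limma in either direction, where 17.4% of all genes did, and their median was -0.048. In 3 of them, Gnai3, Gna13 and Rac1, all cytarabine libraries were above all controls, with Gnai3 at 83.5 to 95.1 FPKM against 75.3 to 82.7 FPKM. This is near the 10.9% of all genes. The kinases GRK2, listed as Adrbk1, and GRK6, which desensitize CXCR4, were at 71.6 to 98.1 and 106 to 148 FPKM, and the arrestin gene Arrb2 was at 40.0 to 53.9 FPKM. The inhibitory G protein gene Gnai2, through which CXCR4 and S1P1 signal, was at 132 to 152 FPKM.

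For each tested receptor the genes most like it were found by the Pearson correlation of log2(FPKM + 1) over the 6 libraries, among the genes that averaged 5 FPKM or more. Over so few libraries many genes reach a high value, with 171 above 0.9 for Cxcr4, 100 for Selplg, 138 for Cd44, 45 for Cxcr6, 27 for Ccr2 and 20 for S1pr1. The genes nearest to Cxcr4 were Tnp2 (0.993) and Atox1 (0.992), and Atox1, a copper chaperone gene, was at 210, 236 and 191 FPKM under treatment against 167, 165 and 181 FPKM in controls. The genes nearest to Selplg were Mtmr14 (0.983) and Tmco4 (0.982), and those nearest to Cd44 were Metrn (0.994) and Gnb4 (0.992). Cxcr6 was closest to Rnaset2a (0.988) and Nemf (0.987), and the first has a near-identical copy between which reads could have been divided. Ccr2 was closest to Anapc16 (0.972) and Pja1 (0.965), and S1pr1 to Serpinf1 (0.991) and Adipor1 (0.964). Serpinf1 was at 18.5 FPKM in control 2, the library with the most S1pr1, and at 1.36 to 9.46 FPKM in the others.

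**Figure D5:**
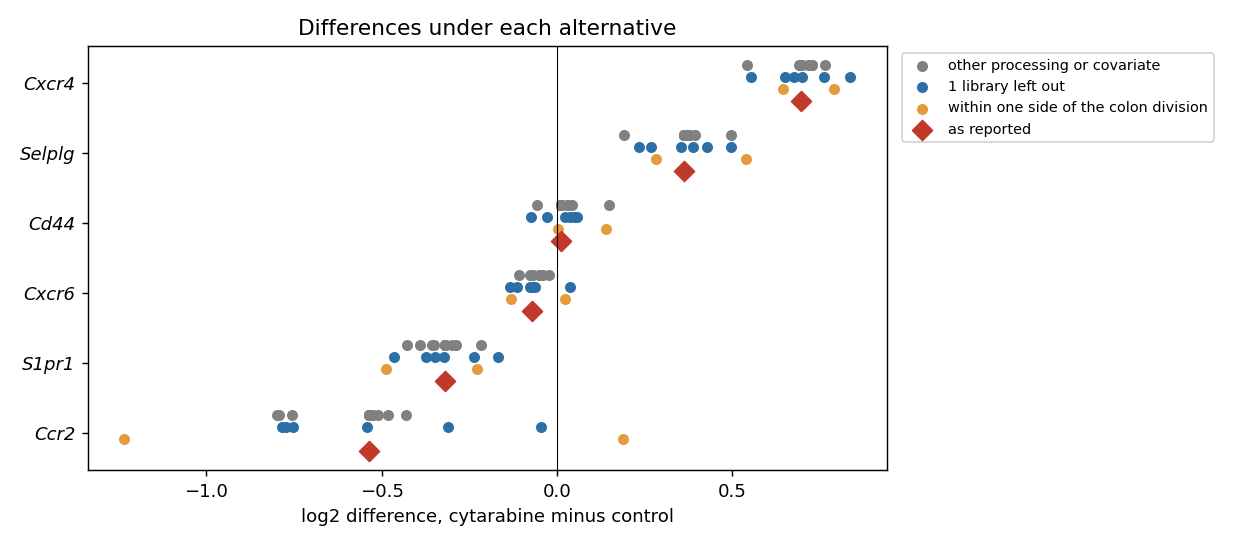
Log2 difference between cytarabine and control (x axis) for each tested receptor (rows) as reported (red diamond) and under other processing, with 1 library left out, or within the libraries with much or little colon RNA (dots). All Cxcr4 values lie between 0.54 and 0.84 and all S1pr1 values are below 0, while Cd44, Cxcr6 and Ccr2 have values on both sides of 0.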

How the data were processed

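RNA of sorted C1498 cells from 3 cytarabine-treated and 3 control mice was sequenced on day 21. Single-end reads of 75 bases were mapped by the authors to mm10 with TopHat 2.0.13, Bowtie2 2.2.3 and SAMtools 0.1.19 and the deposited gene FPKM came from Cufflinks 2.2.1, with the annotation and options not given in the sources used here. Groups and library numbers follow the source names in the labels, and the sample titles number the libraries differently.

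From the FPKM, log2(FPKM + 1) was computed. Genes averaging 1 FPKM or more, 11703 in all, entered a limma fit (version 3.58.1, lmFit and eBayes with trend, run in R 4.3.3). The step was tested on simulated data with independent noise in each gene, which lack the shared colon and heart patterns of these libraries. The receptors and gene lists were chosen with earlier results of these data known. Named genes are all 8 receptors, the listed pathway genes with the smallest p (up to 4 a direction, under 0.05), ligands by role, the 2 genes most like each receptor and leading or absent cell markers. Others (Cd69, Klf2, linkers, Fut4, Fut7, St3gal4, St3gal6, Camp, Cxcr2, Ly6c2, Cd14, Esrp1, Esrp2, signalling genes) were named after their values were seen. The same holds for the T cell, NK cell and myeloid blast genes other than the leading or absent ones. Read totals were inferred from 1527 genes with 1 transcript in GENCODE M21, of at least 2000 bases and an assumed fragment length of 200 bases. About 80% or more of the low values then fell within 0.15 of a whole read. Positions are GENCODE M21 on GRCm38, the same assembly as mm10. Figures were drawn with matplotlib 3.10.9. Alternatives were other pseudocounts, filters, scalings and eBayes settings, a replicate block, colon or heart scores as covariates, and leaving out each library. The listed markers Trac and Ly6g were not analysed here.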

Additional observations from a re-analysis of the deposited data

How the results depend on the processing

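No receptor passed an adjusted p of 0.05 under any alternative run. Cxcr4 was positive in all of them and had an unadjusted p under 0.05 from limma in 19 of 19 fits. The fits share libraries and so are not independent. The adjusted p of Cxcr4 from limma ran from 0.0865, without cytarabine 1, to 0.567. Without cytarabine 1 its unadjusted p from limma was 0.0150, against 0.00443 in the fit reported above. In that fit without cytarabine 1, 4075 genes were under an unadjusted p of 0.05, against 2038. The count of receptors at an unadjusted p under 0.05 was 1 of 6, beside 2038 of 11703 genes. It became 2 with an equal sum per library, with median-of-ratios factors and with the colon score as a covariate, each time with Selplg added. Over all genes the counts were then 2083, 2336 and 1851, in order. Quantile normalization gave 3, with Selplg and S1pr1 added, beside 1941 genes. With no filter on low values the count was 2 of 8, with Ccr7 added, beside 2350 of 18178 genes. Leaving out one replicate gave 1 to 2, with Selplg added without cytarabine 3 and S1pr1 added without control 3.

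Over all genes, 0 passed the threshold, against 1 with a pseudocount of 0.1 or 0.01, 2 when eBayes had no trend, 1 when its trend was robust, 1 with the heart score as a covariate, and from 0 to 5 when one replicate was left out, with 5 without cytarabine 1 and 3 without cytarabine 2. At an unadjusted p under 0.05 the count was 2038, and became 3608 with the heart score, and with one replicate left out from 1179, without control 3, to 4075, without cytarabine 1. It was 1278 without cytarabine 2, 1252 without cytarabine 3 and 1260 without control 2. With the replicate number as a block it was 994, and the adjusted p of Cxcr4 from limma was 0.567. Same-numbered libraries are different mice, their deviations from the group means correlated at -0.71, -0.25 and -0.59, and 0 of 6 libraries correlated best with its own number.

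The log2 difference of Cd44 was -0.056 with the heart score and from -0.074 to 0.056 when one replicate was left out. That of Cxcr6 ranged from -0.13 to 0.036 in the same fits and was 0.024 within the libraries with little colon RNA, and that of Ccr2 was 0.19 within those with much of it. The cause was not tested. Among named genes, a further 298 values kept their direction and side of the threshold, and 10 within the colon division, which have no test, kept their direction. Some of these moved by over 1.5 times. With the colon score, Cx3cr1 was -0.20, Ccr8 -0.17 and S1pr4 -0.27, and with the heart score Selplg was 0.19. Without control 2, Ccl7 was -0.89 and had no unadjusted p under 0.05 from limma. With a pseudocount of 0.01, Cxcl10 was 2.86 and Ccl7 -2.83. Ccr2 has no value with a mean of at least 5 FPKM, which it does not reach. At this depth Ccr7 and Cxcr3 rest on few reads.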

Other observations

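Markers of cell types that are outside the comparisons above were also summed. The 10 T cell genes came to 708 to 932 FPKM with cytarabine and 806 to 972 FPKM in controls, with 5 of them under 1 FPKM in every library, among them Cd4, Cd8a and Cd5. Of the 5 tested, 2 were higher at an unadjusted p under 0.05 from limma and without overlap, against 7.6% and 10.9% of all genes. Cd28 was at 30.9 to 37.9 FPKM with cytarabine and 12.4 to 14.7 FPKM in controls, and Cd3d at 7.66 to 9.99 and 3.61 to 4.47 FPKM. The groups overlapped for Cd3e, Cd3g and Lck. The 6 NK cell genes came to 6.86 to 13.5 FPKM with cytarabine and 3.24 to 5.47 FPKM in controls, and Ncr1, Eomes and Tbx21 stayed below 1 FPKM. The 2 tested, Klrb1c and Gzma, were both higher at an unadjusted p under 0.05 from limma, against 7.6% of all genes. Neither had overlapping groups, against 10.9% of all genes in that direction. Klrb1c was at 3.57 to 5.07 FPKM with cytarabine and 1.82 to 3.00 FPKM in controls, and Gzma at 2.56 to 7.49 and 1.03 to 1.56 FPKM. The 5 erythroid genes and the 10 myeloid blast genes were highest in cytarabine 1, at 308 and 260.2 FPKM in sum, against at most 71.0 and 50.1 FPKM in the other 5 libraries. Not all of the 10 blast genes peaked there. Mpo, Elane, Prtn3 and Ctsg did, while Cd34 was lowest in cytarabine 1, at 0.410 FPKM against 7.72 FPKM in cytarabine 3. Kit and Cebpa also peaked in cytarabine 3, and Cd33, Csf3r and Spi1, listed as Sfpi1, peaked in control 2. Cytarabine 1 was in the middle of the 3 cytarabine libraries for Cxcr4 and Selplg and the lowest of all 6 for S1pr1 and Ccr2.

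Among the receptors at low levels, a value chosen after it was seen, Ccrl2 was at 0.640, 0.692 and 0.705 FPKM under treatment against 0.0735, 0.465 and 0.136 FPKM in controls, so its groups did not overlap, as in 7.91% of genes from 0.1 to 1 FPKM in that direction. Ccrl2 encodes a receptor that binds chemerin without signalling. It was under the filter and was not tested.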
